A study of Mus musculus with 6 samples.

Results

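Glycolysis enzymes that exist as several gene products, with different tissues using different ones, were examined in livers lacking Cpt2 in hepatocytes. The rule named 9 genes: the hexokinases Hk1, Hk2 and Hk3, the phosphofructokinase subunits Pfkl and Pfkp, the bifunctional regulators Pfkfb1 and Pfkfb3, the aldolase Aldoa and the pyruvate kinase Pkm. Of these, 8 had a probe set that named them alone, out of 20242 genes with such a probe set, and Pfkfb1 was not analysed here. The members were not chosen by a threshold on their values. An Affymetrix exon array for mouse was used to measure RNA of 3 Cpt2KO livers (Albumin-Cre with Cpt2f/f, labelled Cpt2LKO in the sample descriptions) and 3 WT livers (Cpt2f/f without Cre). All 6 mice were C57BL/6 males fasted for 24 hours, and both groups carried the floxed alleles. The albumin promoter drives Cre in hepatocytes, and loss of Cpt2 in other liver cells was not measured here. Listed ages ran from 12 to 14 weeks in Cpt2KO mice and from 9 to 11 weeks in WT mice, while the growth protocol of the same labels gave 9 weeks for all, so age as listed and genotype cannot be told apart by a comparison of the groups.

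Glycolysis splits glucose into pyruvate in the cytosol. Its controlled steps are the phosphorylation of glucose by hexokinases, the phosphorylation of fructose phosphate by phosphofructokinase and the last step, catalysed by pyruvate kinase. Hepatocytes use the liver subunit Pfkl and the liver pyruvate kinase Pklr, whereas Hk1, Hk2, Hk3, Pfkp, Aldoa and Pkm are mainly forms of other tissues. In a fast the liver runs the pathway largely backwards, as gluconeogenesis.

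All values below are log2 values as deposited, each from 1 probe set per gene, and an array value does not rank 1 gene's level against another's. Arrays correlated at r = 0.985 to 0.987 among Cpt2KO livers, 0.988 to 0.989 among WT livers and 0.969 to 0.977 between the groups. Differences were tested with limma across all 20242 genes, and a gene was called at a Benjamini-Hochberg adjusted p under 0.05. Nothing in the labels places the arrays in batches. Cpt2, the targeted gene, had 6.48, 6.73 and 6.75 in Cpt2KO livers and 7.56, 7.72 and 7.63 in WT livers (log2 fold change -0.99, SE 0.11, adjusted p = 0.0013 by limma). It was not called with listed age as a covariate (adjusted p = 0.0753) or with every probe set tested (0.0692). Its probe set averages over the transcript and the deleted exons are not given, so the value does not measure what hepatocytes retained. Hepatocyte marker genes were present in both groups, with Alb at 11.23, 11.26 and 11.57 in Cpt2KO livers and 12.11, 12.08 and 11.94 in WT livers. Of 6 measured markers 2, Alb and Ttr, were called as lower in Cpt2KO livers. All 6 had lower means there (median log2 fold change -0.19). In 4 of the 6 (66.7%) the groups did not overlap, against 25.1% of all genes.

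The upstream sequences of the gene that rose and of the gene with the widest spread are shown here for orientation, from RefSeq on GRCm38.p6, a build other than the mm9 named for the array values. Each run is the 250 bases before a transcription start, read 5′ to 3′ on the minus strand, and capitals mark ACGTG or CACGTG on either strand.
Aldoa, the most upstream of 3 starts in the table, chr7:126800448-126800697: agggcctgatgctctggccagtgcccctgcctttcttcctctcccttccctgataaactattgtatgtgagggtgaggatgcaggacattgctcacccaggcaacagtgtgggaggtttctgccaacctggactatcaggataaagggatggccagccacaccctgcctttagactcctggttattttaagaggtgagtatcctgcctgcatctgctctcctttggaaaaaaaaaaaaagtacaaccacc
Aldoa, next start, chr7:126799255-126799504: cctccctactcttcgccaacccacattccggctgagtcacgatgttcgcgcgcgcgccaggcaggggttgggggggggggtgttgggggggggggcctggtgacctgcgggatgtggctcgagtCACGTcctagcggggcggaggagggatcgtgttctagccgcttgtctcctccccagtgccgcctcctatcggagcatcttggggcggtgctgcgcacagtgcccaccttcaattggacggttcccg
Pfkfb3, the more downstream of 2 starts, chr2:11502091-11502340: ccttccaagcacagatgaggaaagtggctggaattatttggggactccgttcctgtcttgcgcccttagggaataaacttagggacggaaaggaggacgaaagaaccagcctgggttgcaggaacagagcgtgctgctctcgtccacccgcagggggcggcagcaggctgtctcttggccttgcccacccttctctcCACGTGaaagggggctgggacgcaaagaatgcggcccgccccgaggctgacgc
ACGTG is the core of the hypoxia response element, CACGTG is the E box bound by MYC and by the carbohydrate sensor MLXIPL, and every CACGTG also contains ACGTG. The table held 17 such windows for all 9 genes, and 7 of them, from 5 genes (Hk2, Hk3, Pfkfb3, Aldoa and Pkm), held ACGTG. Of all 32851 windows, 16.6% did. CACGTG was in 1 of the 17 windows, that of Pfkfb3 shown above, and in 6.02% of all windows. The direct-repeat consensus of the PPAR response element was searched by its exact letters on both strands and was in 0 of the 17 and in 0.033% of all windows. The 2 windows of Aldoa with a match overlap and share it.

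Among the 8 measured genes 1 rose, Aldoa, and none fell by the limma test. Over all genes tested 8.24% were called, 4.74% rising and 3.49% falling, so 1 call among 8 genes is near that background. At an unadjusted p under 0.05 there were 3 genes, Aldoa, Hk3 and Pfkfb3. The share of all genes at that unadjusted threshold was not computed, so this count has no background beside it. In the same 3 genes, 37.5% of the 8, the groups did not overlap either, against 25.1% of all genes. The median log2 fold change of the 8 genes was 0.06, beside -0.01 over all genes tested.

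Aldoa encodes aldolase A, which cleaves fructose bisphosphate and is the aldolase of muscle and most tissues other than liver. Its log2 values were 7.29, 7.29 and 7.33 in Cpt2KO livers and 6.52, 6.39 and 6.52 in WT livers. Every Cpt2KO liver lay above every WT liver, and the spread within the Cpt2KO group was small. The mean was 7.30 ± 0.02 in Cpt2KO livers and 6.48 ± 0.07 in WT livers (SD, n = 3 each). This is a 1.77-fold higher signal (log2 fold change 0.83, SE 0.09, 95% interval 0.62 to 1.04, adjusted p = 0.00129 by limma). The call was lost with listed age as a covariate (log2 fold change 0.80, adjusted p = 0.21) and when every probe set of the table was tested (adjusted p = 0.0813). In bulk liver RNA, more cells of a type and more RNA per cell cannot be told apart.

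Another probe set named Aldoa together with Aldoart1, a retrogene of Aldoa. It had 3.799, 3.773 and 3.497 in Cpt2KO livers and 3.456, 3.935 and 2.994 in WT livers, so the groups overlapped. Its log2 fold change was 0.23 (adjusted p = 0.683 by limma in place of the Aldoa row). Mouse Aldoa has processed copies elsewhere in the genome, whose sequence the probes of either set could share. The 3 genes whose 6 array values, each centred on its own mean, lay closest to those of Aldoa were Sh3d21, Flot1 and Map4k4. Their root mean square differences from it were 0.0313, 0.0379 and 0.042 log2 units over the 6 arrays, and their log2 fold changes were 0.83, 0.89 and 0.78.

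**Figure D1:**
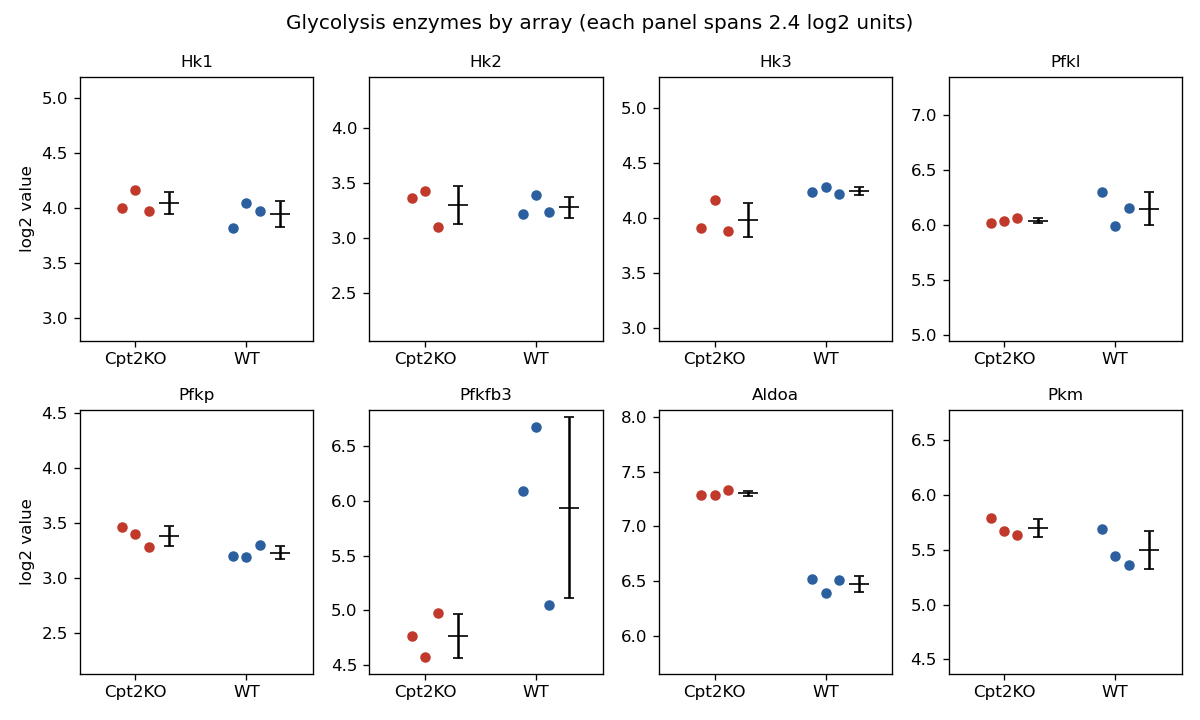
Log2 values (vertical axes, 2.4 log2 units in every panel) of 8 glycolysis genes in 3 Cpt2KO and 3 WT livers; points are arrays, and the bar beside them is the mean ± SD. Aldoa is the gene whose groups stand far apart with little spread, and the 3 WT values of Pfkfb3 run from 5.05 to 6.68.

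Pfkfb3 makes the fructose bisphosphate isomer that switches phosphofructokinase on, and is the form of that regulator induced by hypoxia and proliferation. It had the largest difference of the 8 genes by size, but it did not pass the test. Its log2 values were 4.76, 4.57 and 4.97 in Cpt2KO livers and 6.08, 6.68 and 5.05 in WT livers. The groups did not overlap, yet WT replicate 3 lay 0.08 above the highest Cpt2KO value while the other WT livers lay more than 1 log2 unit above it. The means were 4.77 ± 0.20 in Cpt2KO livers and 5.94 ± 0.82 in WT livers (SD, n = 3 each). The log2 fold change was -1.17 (95% interval -1.97 to -0.36, adjusted p = 0.0905 by limma). Without WT replicate 3 it was -1.61 with adjusted p = 0.00516. It also passed among genes above the median level alone (adjusted p = 0.0461), where fewer genes were tested, and with listed age as a covariate the log2 fold change was -0.55 (adjusted p = 0.951). Pfkfb2 and Pfkfb4, other genes of the family, had log2 fold changes of -0.14 and -0.04 and neither was called.

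Of the hexokinases, none passed. Hk3, a hexokinase of myeloid cells, had 3.91, 4.16 and 3.88 in Cpt2KO livers and 4.23, 4.29 and 4.22 in WT livers. The highest Cpt2KO value came within 0.06 of the lowest WT value. Its log2 fold change was -0.26 (95% interval -0.51 to -0.02, adjusted p = 0.215 by limma). Markers of the myeloid cells that use Hk3 went both ways. Of 12 macrophage markers, 3 rose (Gpnmb, Cd68 and Cd14, log2 fold changes 3.35, 2.32 and 1.09), 1 fell (Marco, -0.52) and the list median was -0.23. Their summed signal, on the linear scale, was 1111 to 1533 in Cpt2KO livers and 767 to 1072 in WT livers. The 3 genes that rose carried this: the other 9 all had lower means in Cpt2KO livers, and their sum was 583 to 719 in Cpt2KO livers and 646 to 912 in WT livers. The Kupffer cell markers Clec4f (-0.28), Timd4 (-0.49) and Csf1r (-0.33) had lower means without passing. Of 8 neutrophil markers none passed by limma, 0 had an unadjusted p under 0.05 and 0 passed with unmoderated statistics; their summed signal was 59.2 to 69.2 in Cpt2KO livers and 64.1 to 74.3 in WT livers. The part of these cells in the values of Hk3 and of Aldoa was not tested.

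Hk1, the hexokinase of brain and red cells, had 4.003, 4.163 and 3.975 in Cpt2KO livers and 3.819, 4.045 and 3.967 in WT livers. Hk2, the insulin-responsive hexokinase of muscle and fat, had 3.37, 3.43 and 3.10 in Cpt2KO livers and 3.21, 3.39 and 3.23 in WT livers. In both genes the groups overlapped. The log2 fold changes were 0.10 for Hk1 (95% interval -0.14 to 0.34) and 0.02 for Hk2 (95% interval -0.25 to 0.29), with adjusted p = 0.71 and 0.968 by limma. A second probe set naming Hk1 went the other way, with 2.28, 2.50 and 2.39 in Cpt2KO livers and 2.47, 2.81 and 2.77 in WT livers (log2 fold change -0.29, adjusted p = 0.221 by limma). The genes named by the 10 nearest probe set numbers of that second set lay on other chromosomes than Hk1, whereas those around the set used for Hk1 lay on its own, by the chromosomes of the RefSeq gene table. Hkdc1, a further hexokinase-like gene, had a log2 fold change of 0.07 and did not pass. Hk1, Hk2, Hk3 and Pfkp lay below the midpoint of the 20242 gene means, a range in which RMA understates differences.

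Phosphofructokinase is a tetramer of subunits from Pfkl, Pfkm and Pfkp. Pfkl, the liver subunit, had 6.02, 6.04 and 6.06 in Cpt2KO livers and 6.30, 5.99 and 6.16 in WT livers. Pfkp, the platelet subunit, had 3.46, 3.40 and 3.28 in Cpt2KO livers and 3.20, 3.19 and 3.30 in WT livers. The groups overlapped in both genes. Log2 fold changes were -0.11 for Pfkl (95% interval -0.35 to 0.13, adjusted p = 0.688 by limma) and 0.15 for Pfkp (95% interval -0.07 to 0.37, adjusted p = 0.461 by limma). Pfkm, the muscle subunit, had 4.83, 4.75 and 4.65 in Cpt2KO livers and 4.93, 5.09 and 5.05 in WT livers, without overlap and without a call (log2 fold change -0.28, adjusted p = 0.149 by limma).

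Pkm encodes the pyruvate kinase of muscle and proliferating tissue, whose M1 and M2 splice forms an average over the transcript does not separate. The probe set chosen by the rule, the brighter of 2, had 5.79, 5.67 and 5.63 in Cpt2KO livers and 5.69, 5.44 and 5.36 in WT livers. The other had 4.72, 4.75 and 4.52 in Cpt2KO livers and 4.69, 4.60 and 4.62 in WT livers. Groups overlapped in both. Log2 fold changes were 0.20 (95% interval -0.06 to 0.46, adjusted p = 0.41 by limma) for the brighter set and 0.02 (adjusted p = 0.948 by limma) for the other. The 10 nearest probe set numbers around the brighter set named 0 genes from the chromosome of Pkm, and those around the other set named 10, so the value of the brighter set is given as that of a probe set annotated to Pkm, and whether it measures Pkm was not tested. Pklr, the pyruvate kinase of liver and red cells, had 7.57, 7.67 and 7.70 in Cpt2KO livers and 7.99, 7.89 and 8.27 in WT livers. Each Cpt2KO value lay below each WT value, but Pklr missed the threshold (log2 fold change -0.40, 95% interval -0.68 to -0.13, adjusted p = 0.0854 by limma). It was called in 1 of 17 alternatives, among genes above the median level alone (adjusted p = 0.044 by limma). After quantile normalization its log2 fold change was -0.31 (adjusted p = 0.349 by limma).

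**Figure D2:**
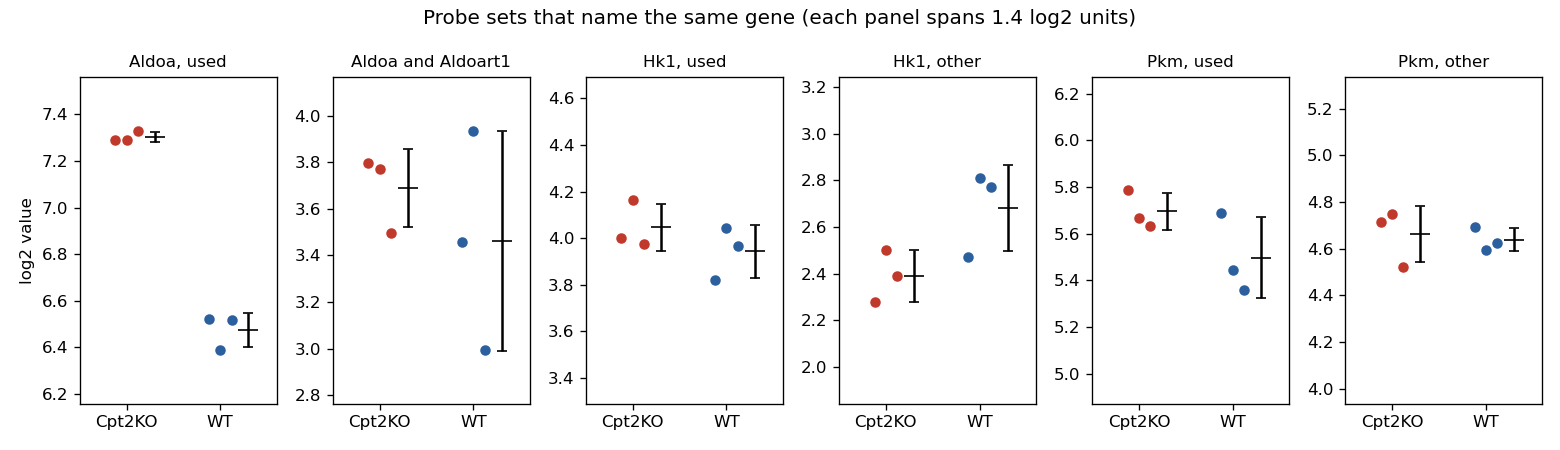
Log2 values (vertical axes, 1.4 log2 units in every panel) of each probe set that names Aldoa, Hk1 or Pkm, in 3 Cpt2KO and 3 WT livers; points are arrays and bars are mean ± SD. The sets of a gene differ in size or sign: Aldoa differs by 0.83 in the set used and by 0.23 in the set shared with Aldoart1, and the sets of Hk1 differ in sign.

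A shift between a liver form and another form of the same enzyme can be read within each array as the difference of the log2 values of both genes. A difference in it between the groups shows that the genes of a pair did not differ by the same amount, which a change in either gene alone would also give, and not which form is the more abundant. None of Pfkp, Pfkl, Pkm and Pklr was called on its own in the main fit. The 2 pairs analysed here were Pfkp with Pfkl and Pkm with Pklr. Pfkp minus Pfkl was -2.55, -2.63 and -2.78 in Cpt2KO livers and -3.10, -2.80 and -2.85 in WT livers. The groups were separated by 0.02 log2 units, less than the spread within either. The means differed by 0.26 (-2.66 ± 0.11 in Cpt2KO livers and -2.92 ± 0.16 in WT livers, SD, n = 3 each; two-sided exact permutation p = 0.1). Without WT replicate 1 the difference was 0.17. For pyruvate kinase the result depends on the probe set of Pkm. With the set around which 10 of 10 neighbouring numbers name genes of Pkm's own chromosome, chosen after the values were seen, Pkm minus Pklr was -2.86, -2.92 and -3.18 in Cpt2KO livers and -3.30, -3.29 and -3.64 in WT livers. The groups were 0.12 apart and the means differed by 0.43, a 1.34-fold higher ratio (-2.98 ± 0.17 in Cpt2KO livers and -3.41 ± 0.20 in WT livers, SD, n = 3 each; two-sided exact permutation p = 0.1). Nearly all of this difference came from Pklr (-0.40) and little from that set of Pkm (0.02). With the brighter set, which the rule chose, Pkm minus Pklr was -1.786, -2.003 and -2.065 in Cpt2KO livers and -2.304, -2.445 and -2.908 in WT livers. The gap between the groups was then 0.24 and the means differed by 0.60 (-1.95 ± 0.15 in Cpt2KO livers and -2.55 ± 0.32 in WT livers, SD, n = 3 each; two-sided exact permutation p = 0.1), a 1.52-fold higher ratio. Without WT replicate 3 the difference was 0.42. Which transcript the brighter set measures was not tested. The smallest p that 3 arrays against 3 allow is 0.1, so neither ratio could pass, and adjustment over the 2 pairs left 0.1.

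**Figure D3:**
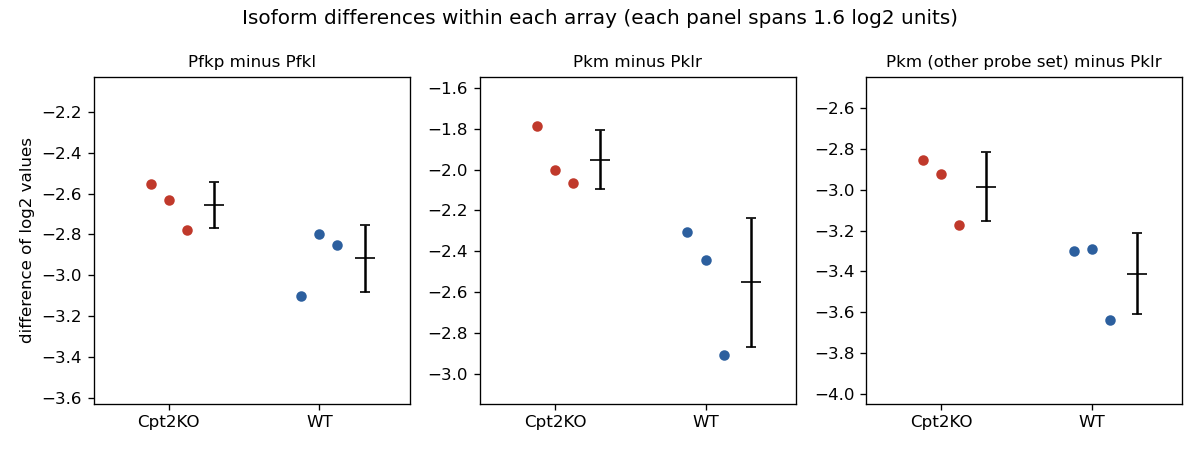
Difference of log2 values between the form of other tissues and the liver form of the same enzyme (vertical axes, 1.6 log2 units in every panel) in 3 Cpt2KO and 3 WT livers; points are arrays and bars are mean ± SD. All 3 Cpt2KO values lie above all 3 WT values in each panel, by 0.02 for Pfkp minus Pfkl, by 0.24 for Pkm minus Pklr and by 0.12 with the other probe set of Pkm.

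The rest of the pathway was read from a list of 25 further enzyme genes, of which 21 were measured. By limma 0 of the 21 passed, 4 had an unadjusted p under 0.05, and 1 passed with unmoderated statistics. For the unadjusted count, here and in the marker lists, the share of all genes was not computed. The median log2 fold change was -0.03, and 6 of the 21 (28.6%) had groups without overlap, near the 25.1% of all genes. Adpgk, which phosphorylates glucose with ADP, came closest, with 4.84, 4.88 and 4.85 in Cpt2KO livers and 4.57, 4.52 and 4.47 in WT livers (log2 fold change 0.34, adjusted p = 0.0549 by limma). It passed with unmoderated statistics, with array weights and with either filter on dim genes. Of the enzymes on the common path, Gpi1 and Eno1 were not analysed here, and those given next were chosen after their values were seen. Gapdh, which oxidises glyceraldehyde phosphate, had a log2 fold change of 0.15 (95% interval -0.06 to 0.36), with groups 0.09 apart and no call, and Tpi1, the triose isomerase, 0.05 (95% interval -0.18 to 0.27). Pgk1, the phosphoglycerate kinase, had 0.03 and Pgam1, the phosphoglycerate mutase, -0.13. Ldha, which reduces pyruvate to lactate, had -0.06 (95% interval -0.35 to 0.23).

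**Figure D4:**
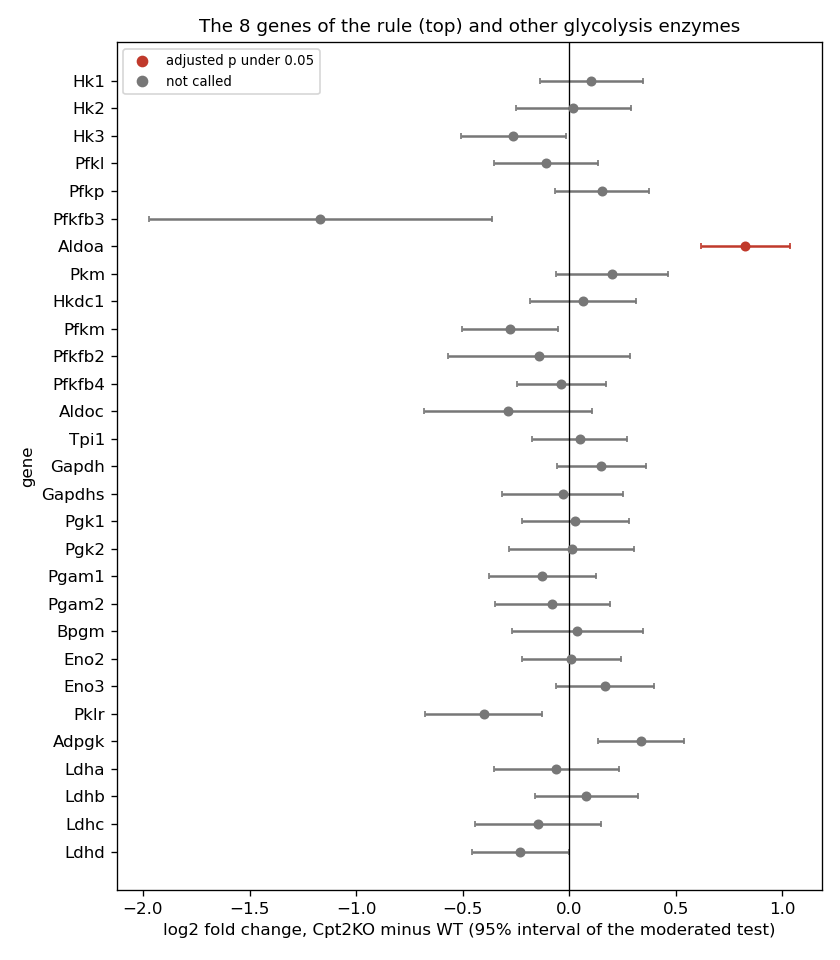
Log2 fold change, Cpt2KO minus WT, with the 95% interval of the moderated test (horizontal axis) for the 8 genes of the rule and 21 other glycolysis enzymes (rows). Aldoa, at 0.83, is the only gene drawn in red as called, and Pfkfb3 has the widest interval, -1.97 to -0.36.

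Genes that regulate the pathway or bring hexoses into it included 13 called genes. Of 14 regulators 3 rose and 5 fell, and of 9 genes of hexose transport and entry 0 rose and 5 fell, beside 4.74% rising and 3.49% falling among all genes. The lists were chosen with earlier results of these data known, so setting these counts beside the shares of all genes is no test. Fbp1 and Ppp1r3g, described below, were counted as regulators. The difference between these lists and the enzymes was not tested. With listed age as a covariate 1 of the 13 kept its call, Gckr, and with unmoderated statistics or with every probe set tested 3 did, Gckr, Myc and Khk. With listed age, log2 fold changes shrank by over 1.5 times for Slc2a5 (-0.31), Arrdc4 (-0.34) and Ppp1r3g (1.47), and grew by as much for Mlxipl (-1.21) and Epas1 (-0.96). The other 8 moved less, among them Khk (-1.13), Myc (1.31), Fbp1 (-0.93) and Tkfc (-0.74). After quantile normalization 9 genes kept the call, without Mlxipl, Epas1, Slc2a2 and Slc2a9. Gckr, a regulatory protein of glucose phosphorylation in hepatocytes, had 6.37, 6.37 and 6.36 in Cpt2KO livers and 7.80, 7.75 and 7.89 in WT livers. Its signal was 2.72-fold lower in Cpt2KO livers (log2 fold change -1.45, SE 0.09, adjusted p = 0.000105 by limma), and it was called under all 17 alternatives. Mlxipl, the carbohydrate-responsive factor that drives Pklr, had a log2 fold change of -0.72 (adjusted p = 0.0105 by limma), and the arrestin-like gene Arrdc4, a known target of it, -0.58 (0.0147). Txnip, another known target, had -0.10 (95% interval -0.34 to 0.13) and did not pass.

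Myc, a growth factor-induced regulator of glycolytic genes, had 5.50, 5.42 and 5.38 in Cpt2KO livers and 4.26, 4.02 and 4.29 in WT livers. It rose 2.37-fold (log2 fold change 1.24, SE 0.11, adjusted p = 0.000392 by limma). The hypoxia-inducible factor gene Hif1a rose (log2 fold change 0.53, adjusted p = 0.0178 by limma) and its relative Epas1 fell (-0.58, adjusted p = 0.028). Hif1a lost the call without WT replicate 2 or 3 (adjusted p = 0.0717 and 0.0702), and Epas1 without each array in turn except Cpt2KO replicate 3 (0.0546 to 0.0921). Ppp1r3g, a glycogen-targeting subunit of protein phosphatase, had 5.42, 7.86 and 6.87 in Cpt2KO livers and 4.19, 4.17 and 4.17 in WT livers. It rose with a wide spread among Cpt2KO livers (log2 fold change 2.54, SE 0.50, adjusted p = 0.0173 by limma) and lost the call without Cpt2KO replicate 3 (0.0722), WT replicate 2 (0.0569) or WT replicate 3 (0.0531).

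Fbp1, which runs the phosphofructokinase step backwards in gluconeogenesis, had 8.77, 9.24 and 8.91 in Cpt2KO livers and 10.09, 9.72 and 9.94 in WT livers (log2 fold change -0.94, adjusted p = 0.00621 by limma). Khk, the kinase that starts fructose breakdown, had 7.94, 7.75 and 7.69 in Cpt2KO livers and 8.88, 8.85 and 9.10 in WT livers. It was 2.22-fold lower in Cpt2KO livers (log2 fold change -1.15, SE 0.11, adjusted p = 0.000751 by limma). Tkfc, which feeds the products of fructose into glycolysis, fell by 0.77 on the log2 scale (adjusted p = 0.00474 by limma), but by 0.27 without a call when all its probe sets were averaged (adjusted p = 0.255). The glucose transporter of hepatocytes, Slc2a2, had a log2 fold change of -0.60 (adjusted p = 0.0113), the fructose transporter Slc2a5 -0.67 (0.013) and the urate and hexose transporter Slc2a9 -0.52 (0.0337), all by limma. Slc2a2 lost the call without WT replicate 3 (0.0518) and Slc2a9 without each array in turn except WT replicate 1 (0.0648 to 0.104). Slc2a1, the transporter of most other tissues, had 6.48, 6.64 and 6.23 in Cpt2KO livers and 6.24, 6.27 and 6.14 in WT livers, and the groups overlapped (log2 fold change 0.23, adjusted p = 0.356 by limma).

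**Figure D5:**
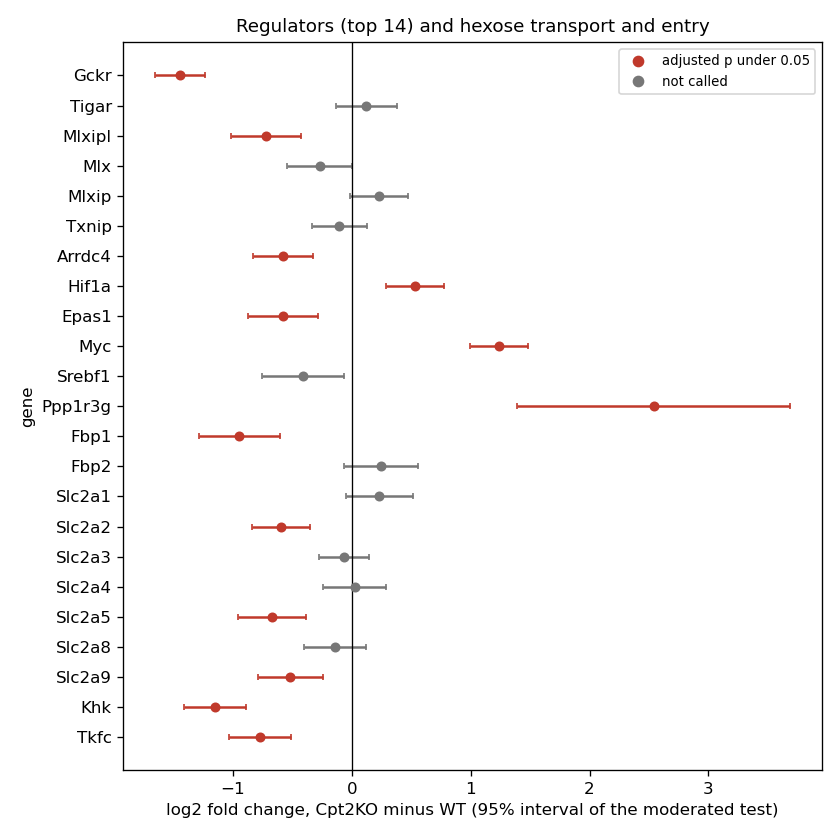
Log2 fold change, Cpt2KO minus WT, with the 95% interval of the moderated test (horizontal axis) for 14 regulators of glycolysis and 9 genes of hexose transport and entry (rows), called genes in red. Gckr (-1.45) and Khk (-1.15) lie lowest, and Ppp1r3g (2.54) and Myc (1.24) highest.

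The markers of other cells in the liver were mostly not called. Of 7 endothelial markers 1 rose, Lyve1 (log2 fold change 0.92, adjusted p = 0.00183 by limma). The other 6 were not called, and the list median was 0.03. The summed signal of the 7 was 1212 to 1328 in Cpt2KO livers and 1077 to 1174 in WT livers. That sum includes Lyve1, with means of 8.46 in Cpt2KO livers and 7.54 in WT livers, and a sum without it was not computed. No gene passed by limma among 7 lymphocyte, 8 stellate cell, 4 cholangiocyte, 2 erythroid, 4 adipocyte, 3 skeletal muscle and 4 proliferation markers. At an unadjusted p under 0.05 there was 1 cholangiocyte and 1 proliferation marker and 0 in the other 5 lists, and with unmoderated statistics 0 passed in any of the 7. Skeletal muscle markers had summed signals of 40.5 to 54.6 in Cpt2KO livers and 46.0 to 49.1 in WT livers. Summed signal of the hepatocyte markers was 12063 to 15173 in Cpt2KO livers and 14961 to 17163 in WT livers. The part of cell composition in the differences above was not tested.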

How the data were processed

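Liver RNA of 3 Cpt2KO and 3 WT mice was hybridised to an Affymetrix exon array, 1 array per mouse, and the labels give the mice as biological replicates. The values deposited by the authors are log2 values per probe set, and Partek, RMA and the build mm9 are named for them per the submitters' processing notes. The RMA options and all versions were not given in the sources used here, and neither detection calls nor scanner files were used. The 115050 values per array ran from 0.668 to 13.6. Precision is limited by the number of arrays.

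Genes were named from the platform annotation: 25469 probe sets named 1 gene, 2286 several and 87295 none. For the 3084 genes with several probe sets the one with the highest mean over 6 arrays was used. Cpt2KO minus WT was tested in limma 3.58.1, run under R 4.3.3, by lmFit and eBayes without a covariate and two-sided, with Benjamini-Hochberg adjustment over 20242 genes. The fit was tested on simulated data. It called 11 of 67 genes changed by 0.5 log2 units, 52 of 67 changed by 1 and 64 of 66 changed by 2. A gene not called can thus still differ by 0.5. Fewer genes were changed there than were called in the data, so these shares need not hold for the data. Isoform differences were compared by exact permutation with scipy 1.17.1. Members, lists, tests and alternatives were chosen with earlier results of these data known. The text names all members, their liver partners, other list genes at adjusted p under 0.05 and the 3 genes closest to each called member; other enzymes, transporters and markers named beside them were chosen after their values were seen. Alternatives changed scaling, dim-gene filters, probe set choice, variance prior, array weights, covariate, block and arrays left out.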

Additional observations from a re-analysis of the deposited data

How the results depend on the processing

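Aldoa kept its direction in all 17 alternatives (log2 fold change 0.78 to 0.87) and its call in 15. It was not called with listed age as a covariate (0.80) or with every probe set tested (0.83), nor from the probe set shared with Aldoart1 (0.23), an alternative chosen after seeing the data. Pfkfb3 was called in 2, among genes above the median level (-1.17) and without WT replicate 3 (-1.61), and ranged from -1.61 to -0.80 when arrays were left out in turn. Hk1 changed sign with the mean of its probe sets (-0.10) and with its other probe set (-0.29), and Hk2 changed sign when any of 4 arrays was removed (-0.047 to 0.12 over the 6 removals). Hk3, Pfkl, Pfkp and Pkm kept their sign and were called in no alternative. Dim-gene filters, the variance prior, unmoderated statistics, the replicate block and testing every probe set leave a log2 fold change as it is. Where the groups do not overlap, as in Aldoa, Hk3 and Pfkfb3, leaving out an array cannot reverse the sign either.

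The number of genes called was 1667, against 652 with unmoderated statistics and 83 with listed age. When every probe set was tested, 367 probe sets were called. Probe sets that name no gene entered that test, so its count cannot be set beside the 1667 genes. With an array left out, 1036 to 1305 genes were called (1036 without WT replicate 2, 1059 without WT replicate 3). Among the 8 members the count was 2 above the median level, 0 with listed age, 0 with every probe set, 0 with the shared probe set of Aldoa and 1 to 2 with an array left out (2 without WT replicate 3). Among other enzymes it was 1 above the 25th percentile of level, 2 above the median level, 1 with unmoderated statistics and 1 with array weights. Among 8 called regulators it was 2 with unmoderated statistics, 1 with listed age, 2 with every probe set and 5 to 7 with an array left out (5 without WT replicate 2 and 5 without WT replicate 3). Among 5 called genes of hexose entry it was 3 after quantile normalization, 1 with unmoderated statistics, 0 with listed age, 1 with every probe set and 3 to 5 with an array left out (3 without WT replicate 3). All 13 of these genes kept their direction in every alternative tried. Their groups did not overlap, so most of the alternatives could not have reversed it. Gckr was called in all 17. The cause of the lost calls was not tested. When every probe set enters, the number of tests and the variance prior change together, so their parts cannot be told apart.

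Deviations of same-numbered arrays correlated at 0.071, 0.183 and -0.082, so the numbers were not taken to pair the mice. With replicate number as a block 1384 genes were called, Aldoa among them (adjusted p = 0.00691 by limma), and no call among the members or the lists changed. The isoform differences of 0.26 and 0.60 had a paired exact permutation p of 0.25, the smallest 3 pairs allow. With an array left out they ran from 0.17 to 0.32 and from 0.42 to 0.73. The groups did not overlap, so leaving out an array could not reverse their sign. With the mean of a gene's probe sets the isoform differences were 0.26 and 0.51. Quantile normalization, listed age, array weights and dim-gene filters were not run on them.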
